A study of Equus caballus with 4 samples.

Results

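Immediate early transcription factors were read from 4 two-color horse arrays on which equine satellite cells treated with gamma-oryzanol (GO) were set against control cells. The members were taken as every noncontrol probe that carries, ignoring case, the gene name *fos*, *fosb*, *jun*, *junb*, *egr1*, *egr2*, *atf3*, *ier3*, *myc* or *klf4*. This gave 16 of the 43603 probes of the array. They stand for 9 of the 10 genes, among 13349 gene names on the array, since 0 probes carry the name *jun*. A further 7 probes, which belong to *fos*, *jun* and *junb* by the gene number or the description in the array files, were found outside this rule and are given apart from it.

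Satellite cells are the stem cells of skeletal muscle. The primary cultures came from the semitendinosus muscle of healthy colts, that is, of young male horses. GO-treated cells received 0.125 μM GO in DMSO for 24 h and were collected on day 3 of differentiation. Control cells were grown alongside and received DMSO alone (0.04 μl/ml), so both groups carried the vehicle. On every array the GO sample was labeled with Cy5 and its control with Cy3, with 4 samples in each group. Without a dye swap, dye and GO effects cannot be told apart. The labels call the arrays biological replicates, and the sources do not make clear whether they represent different horses or cultures of 1 selected line. The limma p-values set the mean ratio against the spread between these 4 arrays, moderated by the spread of all tested probes.

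Immediate early genes are transcribed within minutes of a stimulus such as serum, a growth factor, stretch or stress, from factors already present in the cell and without new protein synthesis. Their messages are short-lived, and many of their products are transcription factors that switch on a later set of genes. FOS and JUN proteins pair through a leucine zipper into the AP-1 complex, EGR proteins bind GC-rich sites through zinc fingers, and MYC drives growth and division. In muscle these genes are known from satellite cell activation and from the response to injury and exercise, and sustained JUN and MYC activity is known to hold back myoblast differentiation.

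Values are log2 ratios of the processed GO signal over the processed control signal of a probe, so that 0 is no difference. Of the 16 probes, 13 were well above background in at least 1 channel on all 4 arrays and were tested by limma together with all such probes. Probes were past both thresholds if the Benjamini-Hochberg adjusted p did not exceed 0.05 and the fold change reached 1.3. Over the array, 2399 of 26832 probes passed (8.94%), 3.33% being higher after GO and 5.61% lower. Of the 13 member probes 2 passed. *Egr1* was higher. The other was 1 of 5 *atf3* probes, which entered the test through the control channel alone, had a GO signal not well above background on any array and is not counted here as lower. With the filter set on both channels, *egr1* was the 1 member probe to pass. An adjusted p of at most 0.05 was reached by 5 of the 13, that *atf3* probe among them, against 18.1% of all tested probes. By the brightest tested probe of each member gene it was reached by 4 of 9. All 4 log2 ratios had 1 sign for 10 of the 13, against 43.6% of all tested probes. These 10 include that *atf3* probe and all 4 *myc* probes, which overlap on 1 message and are not independent. By the brightest tested probe of each member gene the count was 6 of 9. The median of the 13 means, in which *myc* also counts 4 times, was 0.16, beside 0.0047 for all tested probes. In whole cultures, fewer cells of a type and less RNA per cell cannot be told apart.

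**Figure D1:**
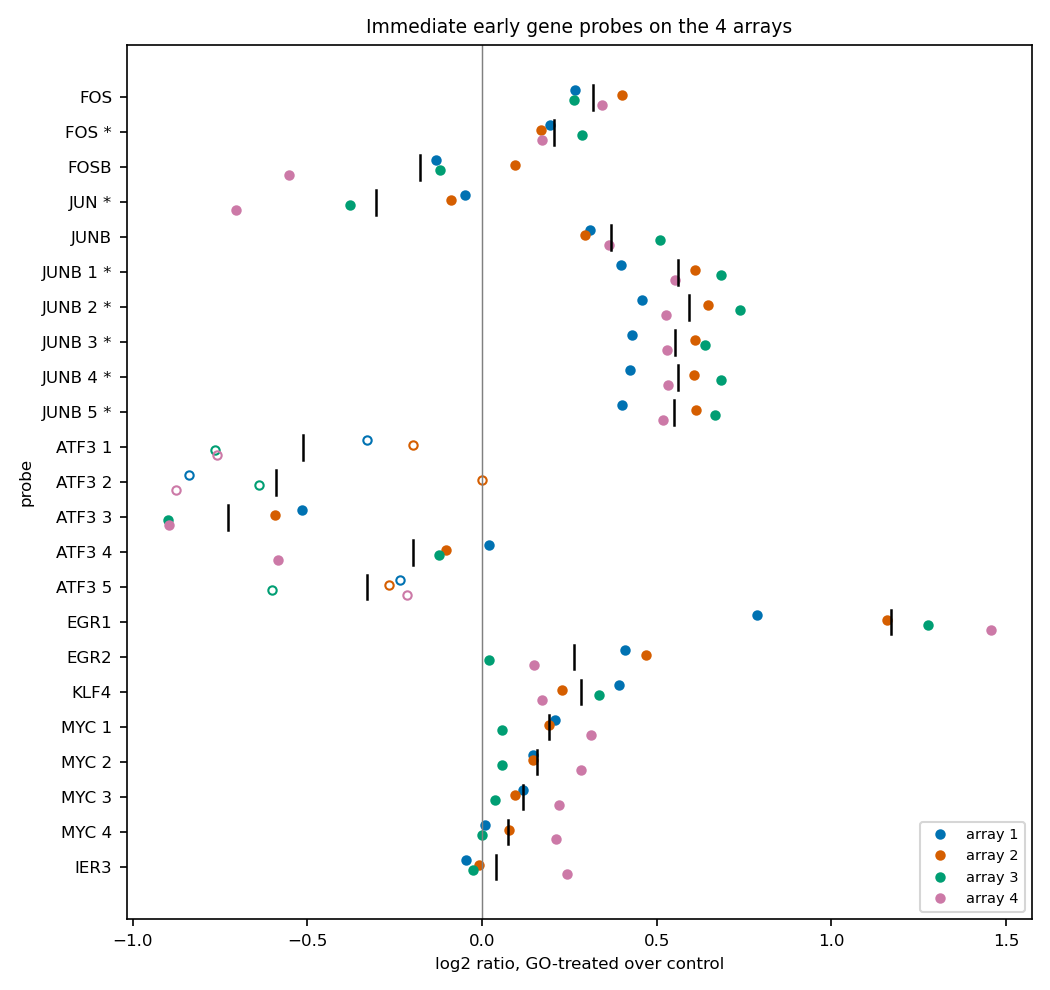
Log2 ratio (GO over control) on arrays 1 to 4 for all 16 member probes and, marked with an asterisk, the 7 probes of the same genes found under other names. Points are single arrays, open where the probe was too dim to be tested, and black bars are means. The *egr1* points lie between 0.79 and 1.46, and the 5 *junb* probes with an asterisk lie above 0 on every array.

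*Egr1*, the zinc finger factor induced by serum response factor after growth factor or stretch signals, had the largest difference of the 10 genes. Its probe lies at chr14:37296035-37296094 of EquCab1, minus strand. The control signal was 3747, 2239, 2557 and 2153 on arrays 1 to 4. The GO signal was 6464, 4997, 6195 and 5909. The lowest GO signal was above the highest control signal, so the groups did not overlap. Non-overlap was seen in 8% of all tested probes and in 2 of the 13 member probes, *egr1* and the dim *fos* probe. The log2 ratios of *egr1* were 0.79, 1.16, 1.28 and 1.46, a mean of 1.17 ± 0.28 (SD, n = 4). This is a 2.25-fold higher level in GO-treated cells (limma, adjusted p = 0.00288, 95% interval 0.91 to 1.43 on the log2 scale). Array 1 had both the highest control signal and the lowest ratio. By mean log2 ratio, *egr1* ranked 21 from the top of 26832 tested probes.

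The genes whose ratios ran closest to those of *egr1* were sought among 9543 other named genes, by the root mean square difference of the 4 log2 ratios. The nearest was *acsm3*, at 0.17, followed by *serpind1* at 0.25, *snx10* at 0.26, *cda* at 0.30 and *crip3* at 0.30. *Acsm3*, a mitochondrial acyl-CoA synthetase, had ratios of 0.73, 1.14, 1.59 and 1.54. The likeness rests on 4 arrays, and the 5 genes had mean ratios between 0.88 and 1.25.

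*Egr2*, the paralog known from myelinating Schwann cells, has 1 probe at chr1:51332808-51332867, minus strand. Its processed signals were dim, 28.2 to 36.8 in control cells and 28.6 to 42.5 in GO-treated cells, though above background on all arrays. The log2 ratios were 0.41, 0.47, 0.02 and 0.15. Arrays 1 and 2 were higher than arrays 3 and 4, and the mean of 0.26 ± 0.21 (SD, n = 4) did not pass (limma, adjusted p = 0.0876, 95% interval 0.05 to 0.48). The mean log2 ratio was 0.05 with normexp background correction.

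**Figure D2:**
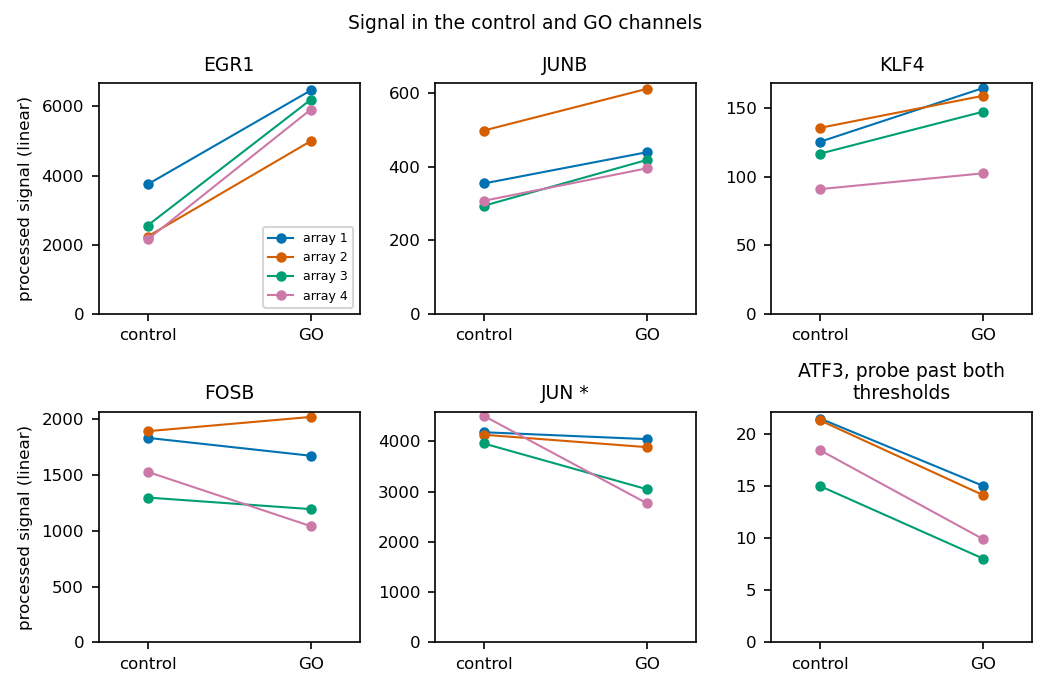
Processed signal (linear scale, from 0) of 6 probes in the control and GO channels, with 1 line per array. The *egr1* signals of GO-treated cells, 4997 to 6464, sit above all control signals, 2153 to 3747, and the *junb*, *klf4*, *fosb*, *jun* and *atf3* signals overlap between channels. The asterisk marks *jun*, which was found by its description.

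*Junb*, a JUN family subunit of AP-1 that restrains proliferation in many cells and supports muscle fiber mass, had 1 probe under its own name and 5 under a gene number. The named probe lies at chrUn:199780176-199780235, minus strand, chrUn being the part of EquCab1 not placed on a chromosome. Its ratios were 0.31, 0.30, 0.51 and 0.36. All 4 were above 0, yet the signals of both channels overlapped, because control signals ran from 294.0 to 498.7 between arrays and GO signals from 395.9 to 612.0. The mean was 0.37 ± 0.10 (SD, n = 4), a fold of 1.29 that stayed just under the limit of 1.3 (limma, adjusted p = 0.0134). With array 1 left out the mean was 0.39 and the probe passed both thresholds (adjusted p = 0.0292).

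The 5 other *junb* probes, each moved by 1 base from the one before, lie between chrUn:199779694 and chrUn:199779757. Control signals ran from 9121 to 13575 and GO signals from 13186 to 18108. For the probe with the largest mean the ratios were 0.46, 0.65, 0.74 and 0.53. Means over the 5 ran from 0.55 to 0.59 and adjusted p from 0.00473 to 0.00554 (limma), so that 5 of 5 were past both thresholds. These 5 probes read almost the same bases of 1 message and are not 5 independent measurements. The call of all 5 was lost with the channels fitted as separate samples (adjusted p from 0.0784 to 0.143) and with the plain one-sample test on the paired ratios (0.0591 to 0.0697).

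*Jun*, the founding AP-1 subunit, was found only by the description of its probe, at chrUn:255545994-255546053, plus strand. Control signals were 4182, 4132, 3958 and 4508. GO signals were 4045, 3885, 3048 and 2769. The log2 ratios, -0.05, -0.09, -0.38 and -0.70, were below 0 on all arrays but small on arrays 1 and 2. The mean was -0.30 ± 0.30 (SD, n = 4) and did not pass (limma, adjusted p = 0.113, 95% interval -0.58 to -0.03). The difference between the *jun* and *junb* ratios was not tested.

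The *jun* and named *junb* probes fall on the same stretch of the 2 related genes, and their sequences are shown because the paralogs are partly alike there. The end of the *jun* probe and the start of the *junb* probe align over 30 bases, of which 23 are identical (76.7%). Capitals mark the bases that differ within that stretch.
jun: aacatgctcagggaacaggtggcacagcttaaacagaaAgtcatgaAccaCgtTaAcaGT
junb: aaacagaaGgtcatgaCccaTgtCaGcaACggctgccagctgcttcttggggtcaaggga
The remaining 30 bases of each probe lie on opposite sides of this stretch.

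*Fos* encodes the best known partner of JUN. Its named probe, at chr24:20142566-20142625, plus strand, was dim, with control signals of 25.9, 27.5, 28.2 and 24.3 and GO signals of 31.1, 36.3, 33.8 and 30.8. It was above background on 4 arrays in the control channel and on 3 in the GO channel. Ratios of 0.27, 0.40, 0.26 and 0.34 gave a mean of 0.32 ± 0.07 (SD, n = 4), a fold of 1.25 with an adjusted p of 0.0162 (limma), under the fold limit. With normexp background correction the mean was 0.08. The second probe, found by gene number at chr24:20143753-20143812, was well above background throughout, with control signals of 1032 to 1475 and GO signals of 1159 to 1689. Its ratios were 0.20, 0.17, 0.29 and 0.17, a mean of 0.21 ± 0.06 (SD, n = 4, limma, adjusted p = 0.0502). Both *fos* probes were thus above 0 on every array and neither passed both thresholds. The dim probe reads:
fos: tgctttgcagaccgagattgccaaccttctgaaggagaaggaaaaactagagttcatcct

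*Fosb*, a FOS paralog, has its probe at chr10:16095501-16095560, plus strand. Control signals were 1832, 1891, 1297 and 1528, and GO signals 1672, 2019, 1194 and 1042. The ratios of -0.13, 0.09, -0.12 and -0.55 had no common sign. The mean was -0.18 ± 0.27 (SD, n = 4, limma, adjusted p = 0.273, 95% interval -0.43 to 0.08).

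*Atf3*, a stress-induced factor that pairs with JUN proteins and often represses its targets, has 5 probes between chr5:17272759 and chr5:17272822, minus strand. They are moved by 1 base each and share 56 bases. The sequences are printed because probes that differ only at their ends gave different values. Capitals mark the bases outside the shared stretch.
atf3 probe 1: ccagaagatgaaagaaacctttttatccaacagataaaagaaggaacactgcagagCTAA
atf3 probe 2: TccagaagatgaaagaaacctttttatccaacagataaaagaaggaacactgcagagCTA
atf3 probe 3: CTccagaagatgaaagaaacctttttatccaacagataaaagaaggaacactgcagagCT
atf3 probe 4: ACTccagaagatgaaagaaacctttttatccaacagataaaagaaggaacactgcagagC
atf3 probe 5: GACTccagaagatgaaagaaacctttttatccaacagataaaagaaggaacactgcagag

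Probe 3 was above background on 4 arrays in the control channel and on 0 in the GO channel, with processed signals of 15.0 to 21.5 and 8.04 to 15.0. It could pass the filter only through the channel where it was higher, and its GO values are bounds. Its log2 ratios as given by the files were -0.52, -0.59, -0.90 and -0.90 (mean -0.73, limma, adjusted p = 0.00536). Against the lowest GO signals that were well above background no fold above 1 was left, so no fold and no direction are given. With normexp background correction the mean was -0.11 (adjusted p = 0.143). Probe 4, the brightest, had ratios of 0.02, -0.10, -0.12 and -0.58 and did not pass (mean -0.20 ± 0.26, SD, n = 4, limma, adjusted p = 0.220). The other 3 probes were too dim to test, with means of -0.51, -0.59 and -0.33. The GO signal was well above background on 1, 0, 0, 3 and 1 arrays for probes 1 to 5, so the 5 means are of signals near background. The dimmest 1074 of all tested probes had a median log2 ratio of -0.17 and a 5th percentile of -0.78, and probe 3 lies within that range.

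*Klf4*, a zinc finger factor and one of the factors used to reprogram cells to pluripotency, has 1 probe at chr25:22381382-22382352, plus strand. These coordinates span 971 bases for a probe of 60, so the probe is split in the genome. Control signals were 125.7, 135.8, 117.0 and 91.1, and GO signals 164.9, 159.2, 147.6 and 102.6. The ratios of 0.39, 0.23, 0.34 and 0.17 were all above 0, and the mean was 0.28 ± 0.10 (SD, n = 4), a fold of 1.22 under the limit (limma, adjusted p = 0.029). The mean was 0.14 with normexp background correction.
klf4: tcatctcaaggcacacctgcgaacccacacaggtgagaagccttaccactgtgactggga

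*Myc*, the growth-promoting factor that acts with MAX, has 4 overlapping probes over 130 bases, chr9:64503640-64503769, plus strand. The first had ratios of 0.21, 0.19, 0.06 and 0.31, and the last, which was the brightest, 0.0084, 0.08, 0.0013 and 0.21. Means were 0.19 ± 0.11, 0.16 ± 0.09, 0.12 ± 0.08 and 0.07 ± 0.10 (SD, n = 4) from the first to the last. Array 4 was the highest and array 3 the lowest for all 4 probes. Each single ratio was above 0, the signals of both channels overlapped, and adjusted p ran from 0.082 to 0.436 (limma). The 95% interval of the first probe was 0.04 to 0.35 and that of the last -0.07 to 0.22. The first and the last probe do not overlap and are shown to mark the limits of what was read.
myc probe 1: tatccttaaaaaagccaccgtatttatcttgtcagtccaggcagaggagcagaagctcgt
myc probe 4: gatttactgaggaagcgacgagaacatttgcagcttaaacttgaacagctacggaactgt

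*Ier3*, which encodes a regulator of survival and of ERK signaling and is grouped here with the factors as a co-induced gene, has 1 probe at chrUn:93484717-93484776, plus strand. The probe is read as *ier3* by its gene name alone, and its target could not be checked without a genome. Its signals differed between arrays, from 67.1 to 254.1 in control cells and from 79.4 to 246.1 in GO-treated cells. The ratios were -0.05, -0.01, -0.03 and 0.24, near 0 on 3 arrays and higher on array 4. The mean was 0.04 ± 0.14 (SD, n = 4, limma, adjusted p = 0.723, 95% interval -0.13 to 0.21).

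**Figure D3:**
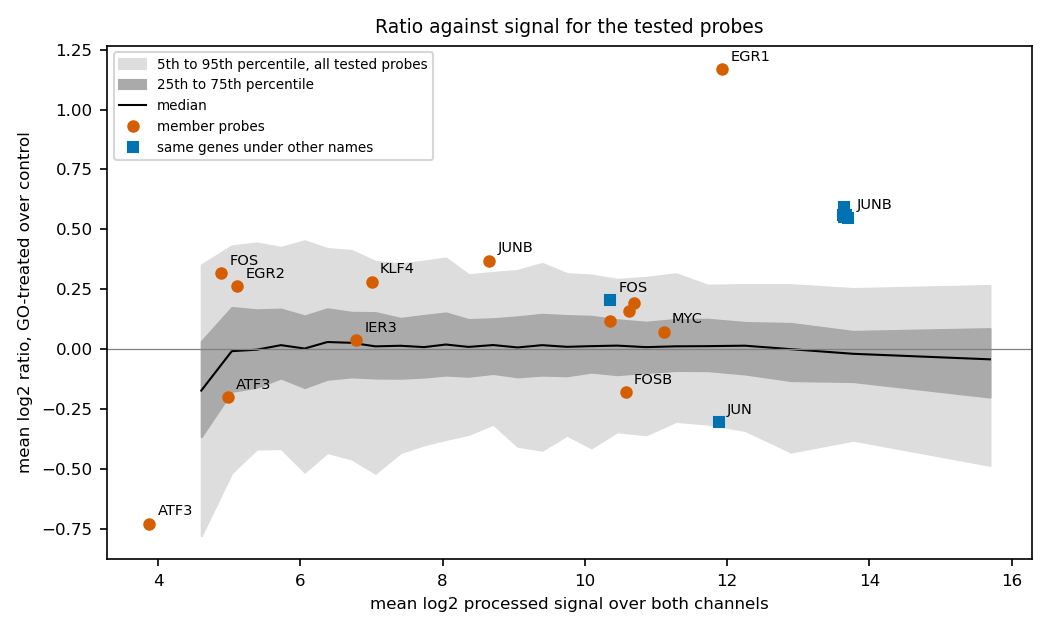
Mean log2 ratio against the mean log2 processed signal of both channels for the 13 tested member probes (circles) and the 7 probes under other names (squares). Gray bands give the 5th to 95th and 25th to 75th percentiles of all 26832 tested probes in bins of signal. *Egr1*, the named *junb* probe and the 5 *junb* squares lie above the outer band, and the *fos*, *egr2* and *atf3* circles lie at the dim end.

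The 9 genes with a probe of their own name, by the brightest tested probe, ran from *egr1* (1.17), *junb* (0.37), *fos* (0.32), *klf4* (0.28), *egr2* (0.26), *myc* (0.07) and *ier3* (0.04) to *fosb* (-0.18) and *atf3* (-0.20). Neighbors in this order from *junb* to *egr2* were separated by less than their SD over arrays, as were *myc* and *ier3*, and *fosb* and *atf3*. By this choice of probe 1 of 9 genes passed both thresholds. The share over the 9552 named genes tested was 8.70% (3.32% higher and 5.38% lower), but it took the brightest probe found under any name. By that wider choice *junb* is read by a probe under a gene number, which passed (0.55, limma, adjusted p = 0.00554). *Fos* is then read by its second probe, which did not pass (0.21).

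**Figure D4:**
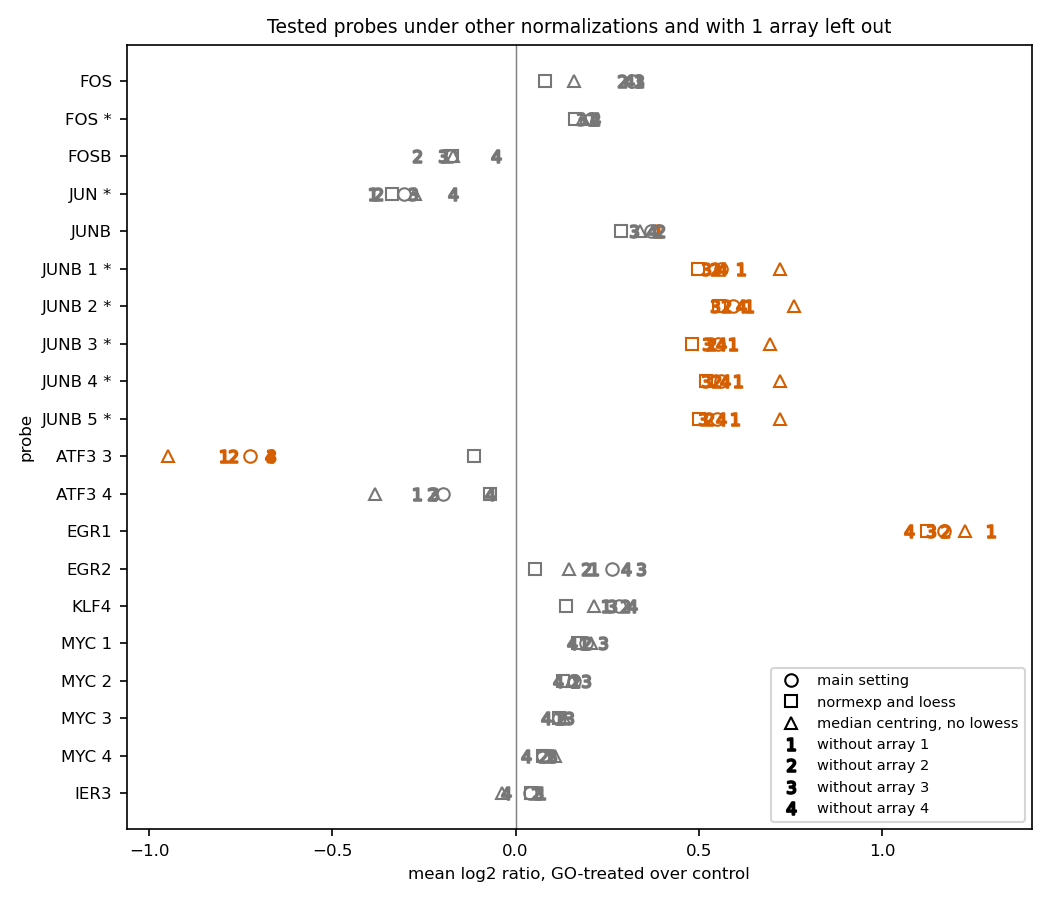
Mean log2 ratio of the tested probes with other background correction or centering, or with 1 array left out, in orange where the probe was past both thresholds and in gray otherwise. *Egr1* stays between 1.07 and 1.3, whereas *atf3* probe 3, whose GO signal was not well above background, moves from -0.95 to -0.11.

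The genes around these factors were read from 6 lists, 97 of whose 140 genes were tested by the brightest probe. Of these, 10 of 97 passed both thresholds, beside 8.70% of all named genes tested, 8 of them higher and *ccnd2* lower. The other, *hbegf*, was below 0 but entered the test through the control channel alone and is not counted here as lower. The median of the 97 means was 0.02. Among the AP-1 relatives 0 of 6 passed by the brightest probe (limma; 4 had an unadjusted p under 0.05, and 3 with the plain one-sample test), with a median of 0.19. Of the 5 tested probes of *atf7*, a JUN partner chosen here after its values were seen, 2 passed, with the highest at 0.46 beside 0.34 for the brightest. Among the upstream serum response and MAP kinase genes 0 of 23 passed (5 and 3 at an unadjusted p under 0.05), with means from -0.23 to 0.22. The share of all tested genes at an unadjusted p under 0.05 is not given, so such counts, here and below, have no yardstick.

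Among 12 other rapidly induced transcription factors *ier2* was the 1 to pass. *Ier2* is a small nuclear immediate early protein. Its ratios of 0.84, 0.36, 0.22 and 0.30 gave a mean of 0.43 ± 0.28 (SD, n = 4, limma, adjusted p = 0.0407), with array 1 well above the others. The call was lost whichever array was left out (means from 0.29 to 0.50), and the mean was 0.18 with normexp background correction. The median of this list was 0.07.

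Of 22 feedback inhibitors and effectors induced with the immediate early genes, 4 were higher past both thresholds. *Hbegf* passed with a mean below 0, but only through the control channel, as given below. An adjusted p of at most 0.05 was reached by 11 of the 22, some higher and some lower (limma), beside 18.1% of all tested probes. An unadjusted p under 0.05 was reached by 17, and by 13 with the plain one-sample test, counts without a share of all tested genes beside them. *Btg2*, an antiproliferative gene, had ratios of 0.17, 0.46, 0.84 and 0.77 and a mean of 0.56 ± 0.31 (SD, n = 4, limma, adjusted p = 0.0245), while its second probe was at 0.08. The call was lost without array 2 (adjusted p = 0.0742), array 3 (0.0813) or array 4 (0.0602). *Dusp6*, the phosphatase that inactivates ERK, had a mean of 0.47 ± 0.23 (adjusted p = 0.0211). *Ptgs2*, the inducible prostaglandin synthase, had a mean of 0.42 ± 0.19 (adjusted p = 0.0211). For each of these 3 genes 1 of 2 tested probes passed, and *dusp6* and *ptgs2* lost the call without array 2 or array 4 (adjusted p from 0.0538 to 0.0876). With normexp background correction the mean of *ptgs2* was 0.28, under the fold limit. *Hbegf*, an EGF receptor ligand, had ratios of -0.42, -0.52, -0.60 and -1.02 and a mean of -0.64 ± 0.26 (adjusted p = 0.0121), with 2 of 4 tested probes passing. It was above background on 4 arrays in the control channel and on 3 in the GO channel, so it was tested through the control channel alone and was not tested with the filter on both. With normexp background correction its mean was -0.22 and the call was lost (adjusted p = 0.0554). The list's median was -0.04.

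In the MYC network 2 of 11 genes passed, both higher. *Mycl*, a MYC paralog, had a mean of 0.45 ± 0.25 (SD, n = 4, limma, adjusted p = 0.0287), and *mxd4*, a MAX partner that opposes MYC, 0.40 ± 0.15 (adjusted p = 0.0161), with 5 of 5 *mxd4* probes passing. Probes of 1 gene read the same samples and are not independent measurements. The mean of *mycl* was 0.13 with normexp background correction (adjusted p = 0.134), and its call was lost without array 2, 3 or 4 (adjusted p from 0.0593 to 0.0691). The call of *mxd4* was lost without array 3 (limma, adjusted p = 0.0647) and without the filter on dim probes (0.0714). With normexp background correction and with array weights its mean was 0.36, under the fold limit. Of 23 genes known as MYC targets 2 passed, in opposite directions. *Gnl3*, a nucleolar GTPase of stem cells, was higher at 0.38 ± 0.07 (adjusted p = 0.0101) by 1 of 2 probes, at the fold limit, and lost the call without array 2 or array 4. With normexp background correction the mean of *gnl3* was 0.34, under the fold limit. *Ccnd2*, a G1 cyclin, was lower on every array at -0.74, -0.60, -0.92 and -0.94, a mean of -0.80 ± 0.16 (adjusted p = 0.00288), by 3 of 3 probes. The medians were 0.02 and -0.03. *Ccnd2* passed in every setting run but the plain one-sample test, and with that test 0 of the 97 genes passed (25 at an unadjusted p under 0.05).

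**Figure D5:**
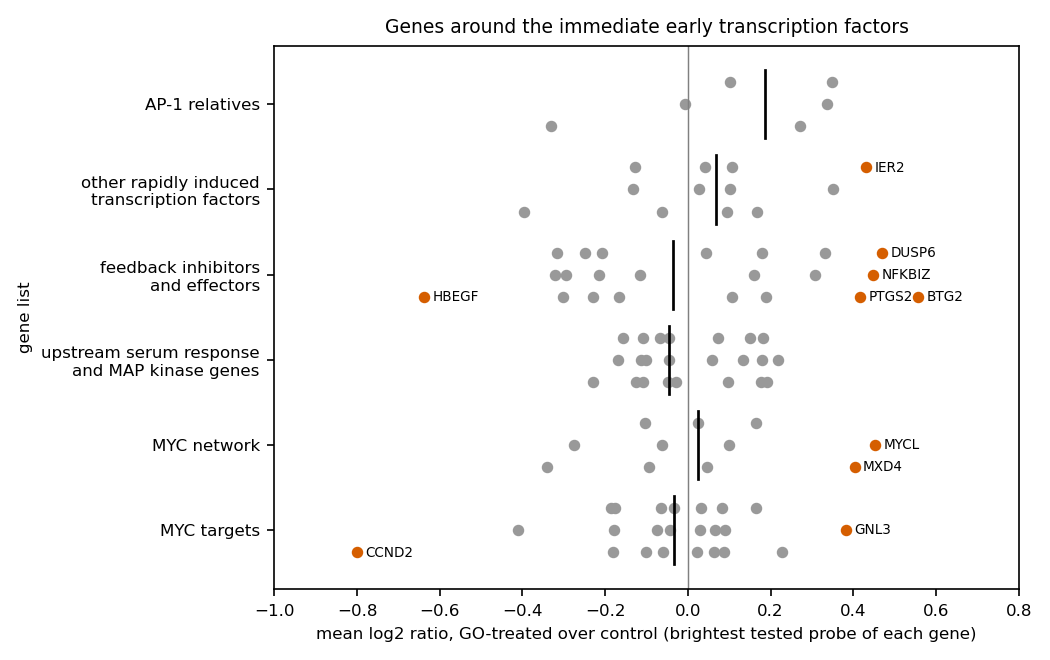
Mean log2 ratio of the 97 tested genes in 6 lists around the immediate early factors, by the brightest tested probe. Orange points are past both thresholds and named, gray points are not, and black bars are list medians, which lie between -0.05 and 0.19.

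The cell type was read from marker lists. All 9 muscle markers on the array were above background in both channels, and 7 were lower in GO-treated cells past both thresholds, from *myog* (-0.40) to *myh8* (-1.08). Their summed signal was 151550 to 207335 in control cells and 87915 to 123893 in GO-treated cells. Of 7 fibroblast markers, all above background, *pdgfra* was higher (0.87, limma, adjusted p = 0.0199), and the summed signals overlapped, 311430 to 483707 against 324706 to 439734. The 5 endothelial and 4 adipocyte markers on the array were above background on 0 arrays, and of 6 leukocyte markers *cd14* and *cd68* were above background. The part of cell composition in the *egr1* and *junb* values was not tested.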

How the data were processed

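The authors used Feature Extraction for the scans. The headers give version 10.10.1.1, whereas the methods name another version. The deposited intensity values are processed signals of each channel after background subtraction and linear and lowess dye normalization, and the deposited log10 ratios are those of processed Cy5 over processed Cy3. A deposited table of the series, which also holds log10 ratios, was not used. Ratios were converted to log2. The 1417 control spots and 10 to 19 outlier spots per array were left out, 0 spots were saturated, and the spots of 1 probe were averaged. The filter kept 26832 of 43603 probes, those well above background on all 4 arrays in the GO channel or in the control channel.

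The ratio pairs the 2 samples hybridized together on an array. Log2 ratios were tested against 0 by limma (version 3.58.1, R 4.3.3), two-sided, with an intercept alone and eBayes (prior SD 0.144 with 3.60 degrees of freedom). The p-values were adjusted by Benjamini-Hochberg over the 26832 probes, and intervals are those of the moderated test. The methods give the fold limit of 1.3 and a limit of 0.05 on the Benjamini-Hochberg adjusted p, and do not name the test. The number of arrays limits the precision. Noncontrol spots well above background made up 63.5 to 68.9% (control channel) and 57.4 to 67.0% (GO channel), and the ratios of any 2 arrays correlated at 0.45 to 0.68 across probes. All 4 arrays were on 1 slide.

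The files named 24960 probes, and 1891 more were named by gene number and 428 by accession through a RefSeq table of TB-T2T, used for names only. Positions and probe sequences are those of the files, on EquCab1. Without an annotation of that build, exons and UTRs were not assigned. Members, gene lists and marker lists were chosen with earlier results of these data known. By rule, all members are named, together with each list gene past both thresholds (where over 4 passed, the 2 highest and 2 lowest) and the 5 genes most like the member with the largest ratio. Alternatives were normexp correction (offset 50) with loess, centering with and without lowess, no filter, a filter in both channels, a plain one-sample test, separate channels, array weights and leaving out each array.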

Additional observations from a re-analysis of the deposited data

Results flagged for a closer look

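Over 4 arrays, 2 of 23 probes had 1 log2 ratio that stood apart from the other 3, and about 1 in 20 groups is expected to do so by chance. For *atf3* probe 5 array 3 stood at -0.60 beside -0.27 to -0.22 on the others, a gap of 0.866 of the whole range. This probe was too dim to be tested. For *ier3* array 4 stood at 0.24 beside -0.05 to -0.01, a gap of 0.875 of the range, and the mean without array 4 was -0.03.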

How the results depend on the processing

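The 2399 probes past both thresholds became 1297 with normexp, 908 without the filter, 147 with the plain one-sample test and 370 with separate channels and no replicate block for the array, and 1566 to 2430 with 1 array left out. The 2 member probes became 1 with normexp, without the filter, with the filter in both channels and with separate channels and no replicate block. They became 0 with the plain test (7 of 13 at an unadjusted p under 0.05, with no share of all tested probes beside it). They became 7 with the probes under other names, a setting chosen after seeing the data, and 2 to 3 with 1 array left out. The 10 list genes became 3, 3, 0 and 1 with normexp, no filter, the plain test and separate channels without the replicate block, and 4 to 11 with 1 array left out, 4 without array 2, 6 without array 3 and 6 without array 4. *Egr1* passed in every setting but the plain test (adjusted p = 0.0743). *Ier3* reversed to -0.036 with median centering and no lowess (adjusted p = 0.74), and was -0.027 to 0.068 with 1 array left out. The share of higher probes among those past both thresholds, 37.3%, was 19.7% with the plain test and 17.8% with separate channels, and 31.3 to 42.5% in the other settings run. The cause was not tested. Over 311 values of single genes and probes in these settings, 240 kept their direction and, where tested, their side of the thresholds. Of the others 68 no longer passed, 1 newly passed and 2 reversed. Among the 240 are the means over all tested probes of *atf3* and of *myc*, which have no p and were judged by direction and size alone. Many of the 240 belong to probes that did not pass in the main setting and so had no call to lose. The *junb* probes moved by 1 base are each counted, and *atf3* probe 3 has no values of its own here. The 240 are thus no measure of how well calls held. The filter leaves the *atf3*, *egr2* and named *fos* probes near background, where signal limits the ratio.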
